A study of Bombyx mori with 2 samples.

Results

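The genes described here encode the enzymes that build and modify fatty acids in the silkworm, *Bombyx mori*: fatty acid synthases, desaturases, elongases and fatty acyl-CoA reductases. They were chosen by name. A gene model was taken when the BLAST name in the deposited expression table contained "fatty acid synthase", "desaturase", "elongase", "elongation of very long chain fatty acids" or "fatty acyl-CoA reductase". This gave 68 of 12376 gene models, namely 16 fatty acid synthases, 17 desaturases, 12 elongases and 23 reductases. The names are those of the best BLAST protein, and no enzyme activity was measured.

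The *nm2* mutant does not molt in the 2nd instar and carries a structural alteration of the cuticular protein gene *BmCPG10*. It was set against the wildtype strain C603, in which it was found. Heads were taken from fed larvae of both strains in the pre-molting stage of the 2nd instar, and each strain gave 1 digital gene expression (DGE) library, described in the labels as heads of 6 larvae. The mutant stays in this stage for days, and the day of sampling within it is not given in the sources used here. The paper also states that the mutant eats less mulberry leaf and hardly develops. Genotype, food intake and time in the stage therefore cannot be told apart.

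Fatty acid synthase joins acetyl and malonyl units into a saturated chain, mainly palmitate. Elongases lengthen that chain, desaturases put double bonds into it, and fatty acyl-CoA reductases turn the acyl-CoA into a fatty alcohol. In insects the products go into membranes and stored fat, into the waxes and hydrocarbons that waterproof the cuticle, and in moths into the sex pheromone, where the bombykol of *B. mori* is a desaturated and reduced derivative of palmitate.

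Expression was measured as FPKM, fragments per kilobase of transcript, scaled to library size, so levels of different genes can be compared per length. The libraries held 12900347 clean reads in *nm2* and 12912619 in the wildtype, of which 60.12% and 55.48% mapped to genes, with 6.83% in *nm2* and 4.67% in the wildtype mapping to more than 1 position. *BmCPG10* (*BGIBMGA002602*) stood at 278 FPKM in *nm2* and 117 FPKM in the wildtype, and this level alone does not show the alteration. For each gene the difference was taken as log2((*nm2* + 1)/(wildtype + 1)), with 1 FPKM added so that values near 0 do not give extreme ratios. A gene is called higher or lower in *nm2* below if it reached 5 FPKM in at least 1 library and the difference was 1 or more, or -1 or less, that is at least 2-fold on this scale. With 1 library per strain there was no spread between replicates, so the strains could not be tested against each other and the values compare this pair of libraries only.

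Many of the fatty acid genes stood higher in *nm2*. Of the 68 gene models, 41 reached 5 FPKM in a library, and 21 of these were higher and 8 lower in *nm2*. Among all 9158 gene models at this level, 8.83% were higher and 15.0% were lower. The median difference of the 41 was 1.03 on the log2 scale, against -0.30 for all genes at this level. Several models matched the same best protein and are not independent. With the FPKM of such models averaged to 1 value per protein, and the limit applied to that average, 15 of 35 were higher and 8 lower. The median was then 0.63. At the stricter limit of 4-fold, 12 of the 41 were higher and 5 lower, beside 3.23% higher and 4.76% lower of all genes. Gene models that reached the limit only through the library in which they are high had to differ, so the 27 models under it are given with each class as well. Of the 68 models, 47 had more FPKM in *nm2* than in the wildtype at any size of difference, while 35.3% of all gene models did.

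The summed FPKM of the 68 models did not follow these counts, at 1387 in *nm2* and 1568 in the wildtype. The classes moved in different ways, with the synthases at 107 FPKM in *nm2* and 14.95 in the wildtype, the desaturases at 417 in *nm2* and 686 in the wildtype, the elongases at 322 in *nm2* and 243 in the wildtype, and the reductases at 540 in *nm2* and 624 in the wildtype. A few abundant genes set these sums. A single reductase, *BGIBMGA011128*, made up 18.4% of the summed FPKM in *nm2* and 21.9% in the wildtype.

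**Figure D1:**
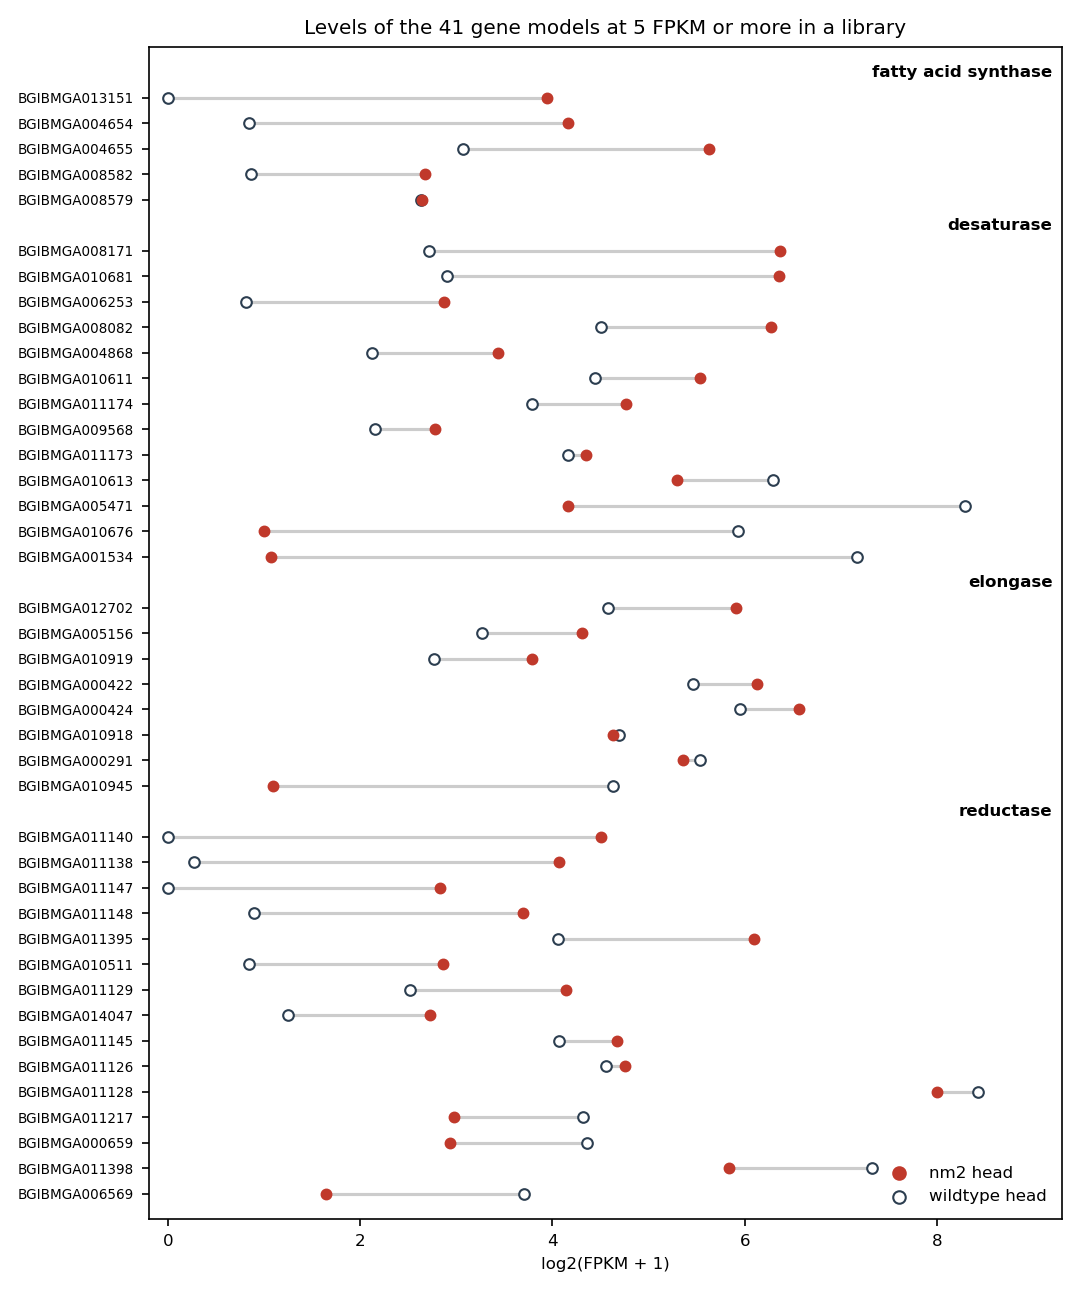
Levels of the 41 gene models that reached 5 FPKM in a library, as log2(FPKM + 1), by class and ordered by their difference. Filled red points are the *nm2* head and open points the wildtype head, with 1 library each. Red points lie to the right for most synthases and many reductases, while 3 desaturases with high wildtype levels lie far to the left in *nm2*.

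The head libraries also held transcripts of other tissues, and several of these moved between the libraries. Counts of higher and lower marker genes, here and in the next paragraph, stand beside 8.83% and 15.0% of all genes at 5 FPKM or more. Genes named for storage proteins, 30K lipoproteins and vitellogenins, which are products of the fat body, summed to 36183 FPKM in *nm2* and 14411 FPKM in the wildtype, with 15 of 25 higher and 3 lower. Of the 43 genes of this list, 37 were above 0 in *nm2* and 35 in the wildtype. The list also holds vitellogenin receptor models, which stayed under 5 FPKM. The vitellogenin precursor was listed at 0 in *nm2* and at 0.05 FPKM in the wildtype, and arylphorin subunit beta stood at 1.06 FPKM in *nm2* and 9.0 FPKM in the wildtype. Aminopeptidase N and peritrophin genes, typical of the midgut, summed to 1684 FPKM in *nm2* and 802 FPKM in the wildtype, with 7 of 12 higher and 3 lower and none of the 13 at 0. The epidermis list, of cuticle protein and chitin synthase names, summed to 120623 FPKM in *nm2* and 42309 FPKM in the wildtype, with 41 of 84 higher and 27 lower. A single cuticle gene, *BGIBMGA005277*, had 32989.52 FPKM in *nm2* and 185.48 FPKM in the wildtype. Chitin synthase A had 19.08 FPKM in *nm2* and 40.99 FPKM in the wildtype, and chitin synthase B had 20.22 and 8.0 FPKM. Of the 148 genes of the epidermis list, 118 were above 0 in *nm2* and 131 in the wildtype.

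The sums of the other marker lists moved less, though single genes in them differed strongly. The sums were 7321 FPKM in *nm2* and 4820 FPKM in the wildtype for silk gland genes, of which sericin 3 was listed at 0 in *nm2*. Muscle genes, a list that also holds models named non-muscle myosin, summed to 21785 FPKM in *nm2* and 31260 FPKM in the wildtype. Of 20 muscle genes at 5 FPKM or more, 0 were higher and 3 (15.0%) lower, the same share of lower genes as among all genes. Nerve genes summed to 313 FPKM in *nm2* and 364 FPKM in the wildtype, with 1 of 18 higher and 1 lower. The lower one, the elav-like *BGIBMGA005888*, had 4.78 FPKM in *nm2* and 17.74 FPKM in the wildtype. This list also holds extended synaptotagmin and CUGBP Elav-like names. Synaptotagmin I had 2.34 FPKM in *nm2* and 5.47 FPKM in the wildtype. Of the 28 models of the list, 12 had more FPKM in *nm2* and 16 had less, while 35.3% of all gene models had more. Genes named for opsins, arrestins and retinal proteins summed to 329 FPKM in *nm2* and 404 FPKM in the wildtype, with 1 of 11 higher and 2 lower. The lower ones are named for retinaldehyde-binding proteins. *BGIBMGA004378* had 5.9 FPKM in *nm2* and 73.59 FPKM in the wildtype, and *BGIBMGA013017* had 2.15 and 77.98 FPKM. The higher one, a retinal dehydrogenase, had 128.02 FPKM in *nm2* and 51.93 FPKM in the wildtype. The 3 blood cell genes summed to 32.1 FPKM in *nm2* and 23.4 FPKM in the wildtype. The opsins were low in both heads, with *ceropsin* highest at 4.83 FPKM in *nm2* and 2.23 FPKM in the wildtype. No gene carried the name of cytochrome P450 4G, the marker of oenocytes, the cells in which insects make cuticular hydrocarbons. The part of these tissues in the differences of the fatty acid genes was not tested, and in pooled heads fewer cells of a type and less RNA per cell cannot be told apart.

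Most fatty acid synthase models had more FPKM in *nm2*. Of the 16 models, 14 had more FPKM in *nm2* and 2 had more in the wildtype, while 35.3% of all gene models had more in *nm2*. Of the 5 that reached 5 FPKM, 4 were higher and none was lower, beside 8.83% and 15.0% of all genes. The median difference was 2.56 on the log2 scale. *BGIBMGA004654*, *BGIBMGA008582* and *BGIBMGA013151* reached the limit only through *nm2*, so their calls partly follow from the limit. The most abundant model, *BGIBMGA004655*, had 48.55 FPKM in *nm2* and 7.39 FPKM in the wildtype, a 6.57-fold difference with a 95% counting interval of 5.61 to 7.74. These levels rest on about 1253 reads in *nm2* and 177 reads in the wildtype, recovered from FPKM and gene length. The short model *BGIBMGA004654* matched the same protein and had 16.91 FPKM in *nm2* and 0.79 FPKM in the wildtype. With 27 reads in *nm2* and 1 in the wildtype, its ratio of 21.4 has an interval of 4.13 to 1026. Both models of this protein thus stood on the same side, with very different precision.

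Other synthase models were close to absent from the wildtype head. *BGIBMGA013151* had 14.43 FPKM in *nm2*, from 193 reads, and was listed at 0 in the wildtype, which makes it at least 59.7-fold higher when the wildtype is set to a floor of 3 reads, while the 95% counting interval of the ratio reaches down to 48.1-fold. *BGIBMGA008582* had 5.37 FPKM in *nm2* and 0.82 FPKM in the wildtype, a 6.55-fold difference with an interval of 2.54 to 17.4. Its neighbour in name, *BGIBMGA008581*, which matched the same protein, stayed under 5 FPKM with 3.32 in *nm2* and 0.15 in the wildtype. *BGIBMGA008579* did not follow the others, with 5.23 FPKM in *nm2* and 5.22 FPKM in the wildtype.

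The remaining synthase models were weak in both heads. The 11 models under 5 FPKM summed to 16.1 FPKM in *nm2* and 0.73 FPKM in the wildtype, and 9 of the 11 had more in *nm2*. *BGIBMGA013280* was the strongest of those listed at 0 in the wildtype, with 3.55 FPKM in *nm2* from 29 reads, at least 8.97-fold above the floor, with a counting interval that reaches down to 6.84-fold. In all, 9 of the 16 models were listed at 0 in the wildtype and above 0 in *nm2*, a pattern seen in 4.2% of all gene models, and 1 of the 16, *BGIBMGA013286*, showed the opposite at 0.18 FPKM, beside 5.05% of all gene models. The 16 models matched 9 proteins, and 4 of these proteins were each the best hit of several models. Such models can be fragments of 1 gene or close copies between which reads are divided, so the 16 values are not independent. With the FPKM of models of the same protein averaged, 2 of 3 synthases whose average reached 5 FPKM were higher.

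The desaturases changed places. Desaturases insert a double bond into a fatty acyl chain at a fixed position, using electrons passed on by cytochrome b5. Of the 17 models, 13 reached 5 FPKM, and 6 of these were higher and 3 lower in *nm2*, beside 8.83% and 15.0% of all genes. The higher *BGIBMGA004868* and *BGIBMGA006253* reached the limit only through *nm2*. The lower *BGIBMGA001534* and *BGIBMGA010676* reached it only through the wildtype. The calls of these genes partly follow from the limit. All 3 lower genes were abundant in the wildtype and made up 75.2% of its summed desaturase FPKM, against 4.56% in *nm2*. The 6 higher genes made up 71.9% of the sum in *nm2* and 8.55% in the wildtype. Of the 5 most abundant desaturases of *nm2*, 2 were also among the 5 most abundant of the wildtype. These shares describe genes sorted by their own difference and are given without a test.

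*BGIBMGA005471*, an acyl-CoA desaturase-like gene, was the leading desaturase of the wildtype head. It had 16.94 FPKM in *nm2* and 313.31 FPKM in the wildtype and was 18.5-fold lower in *nm2*, with a counting interval of 14.7 to 23.2. The *BmorVPAE* desaturase *BGIBMGA001534* had 1.1 FPKM in *nm2* and 143.01 FPKM in the wildtype. It was 130.0-fold lower with an interval of 35.5 to 1078, from 2 reads in *nm2* and 241 in the wildtype. *BGIBMGA010676* had 1.0 FPKM in *nm2* and 59.78 FPKM in the wildtype and was 59.8-fold lower, with an interval of 20.2 to 294 from 3 reads in *nm2* and 167 in the wildtype. These 3 genes fell to near the detection limit or, for *BGIBMGA005471*, to the middle of the class.

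Other acyl-CoA desaturases stood high in *nm2*. *BmorLPTQ* (*BGIBMGA008171*) had 81.30 FPKM in *nm2* and 5.56 FPKM in the wildtype, 14.6-fold higher with an interval of 9.90 to 22.4. *Desat3* (*BGIBMGA010681*) had 81.11 FPKM in *nm2* and 6.46 FPKM in the wildtype, 12.6-fold higher with an interval of 8.36 to 19.7. The *BmorKPAE* desaturase *BGIBMGA010611* had 45.38 FPKM in *nm2* and 20.77 FPKM in the wildtype, 2.18-fold higher with an interval of 1.68 to 2.86. *BmorLPTQ* and *Desat3* were thus the most abundant desaturases of the *nm2* head and were low in the wildtype. Weaker members of this group were *BGIBMGA004868*, with 9.77 FPKM in *nm2* and 3.37 FPKM in the wildtype, and *BGIBMGA006253*, with 6.31 FPKM in *nm2* and 0.76 FPKM in the wildtype.

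*Desat1* (*BGIBMGA011563*), the desaturase and conjugase of bombykol synthesis in the adult pheromone gland, was low in these larval heads. It had 4.56 FPKM in *nm2* and 0.33 FPKM in the wildtype and so did not reach 5 FPKM. Of the 4 desaturase models under this limit, 3 had more FPKM in *nm2*, and together they summed to 8.59 FPKM in *nm2* and 1.12 FPKM in the wildtype. The exception was *BGIBMGA010614*, listed at 0 in *nm2* and at 0.51 FPKM in the wildtype.

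Not every gene named desaturase acts on fatty acyl-CoA. *BGIBMGA008082* carries the name of the fission yeast C-5 sterol desaturase Erg32, which in fungi acts on the sterol ring. It had 76.11 FPKM in *nm2* and 21.76 FPKM in the wildtype, 3.50-fold higher with an interval of 2.78 to 4.43. The sphingolipid desaturase DES1, which makes ceramide from dihydroceramide, matched a pair of models. *BGIBMGA011174* had 26.23 FPKM in *nm2* and 12.76 FPKM in the wildtype, and *BGIBMGA011173* had 19.36 FPKM in *nm2* and 16.89 FPKM in the wildtype. Neither reached the limit for a higher gene. Without the sterol and sphingolipid desaturases, 5 of 10 acyl-CoA desaturases were higher and 3 lower, with sums of 296 FPKM in *nm2* and 635 FPKM in the wildtype.

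A pair of genes lay just outside the 2-fold limit. *BmorPDSN* (*BGIBMGA010613*), an acyl-CoA desaturase, had 38.28 FPKM in *nm2* and 77.23 FPKM in the wildtype, a difference of -0.99 on the log2 scale. The DES1 model *BGIBMGA011174* differed by 0.98. Just inside the limit were the elongases *BGIBMGA010919* at 1.03 and *BGIBMGA005156* at 1.04. Counts of called genes near this limit therefore rest on small distances.

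**Figure D2:**
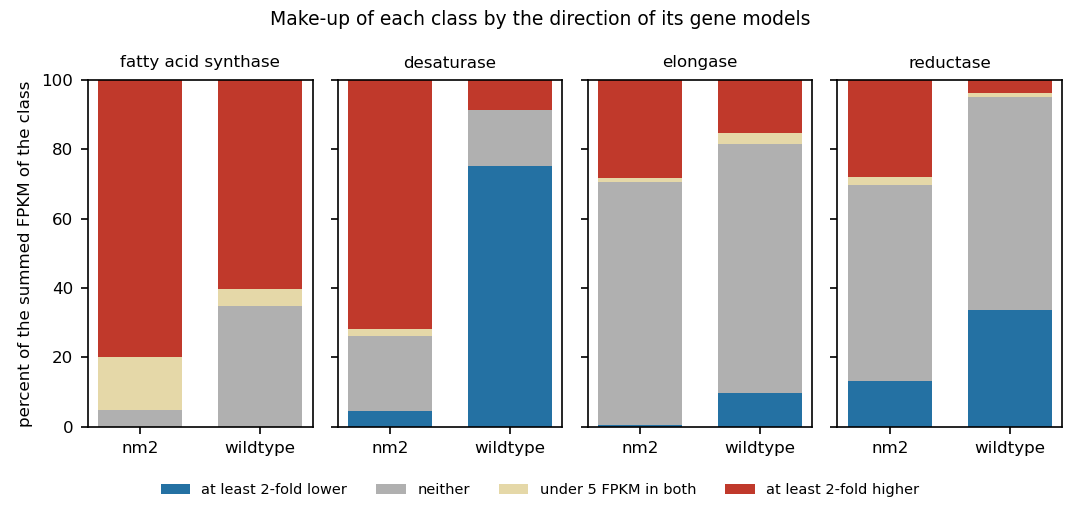
Percent of the summed FPKM of each class held by gene models that were at least 2-fold lower, neither, under 5 FPKM in both libraries, or at least 2-fold higher in *nm2*, with *nm2* on the left and the wildtype on the right of each panel. Genes lower in *nm2* held 75.2% of the desaturase FPKM of the wildtype and 4.56% in *nm2*, and the elongases that were neither higher nor lower held 70.2% in *nm2* and 71.8% in the wildtype.

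The elongases had the smallest share of called genes of the 4 classes. An elongase is the condensing enzyme that starts each round of chain lengthening in the endoplasmic reticulum. Of the 12 models, 8 reached 5 FPKM, and 3 were higher, 1 lower and 4 neither. Among all genes at this level, 8.83% were higher and 15.0% lower. No elongase was 4-fold higher and 1 was 4-fold lower, beside 3.23% and 4.76% of all genes. Of the 12 models, 6 were above and 6 below the wildtype level, while 35.3% of all gene models were above it. Of the 5 most abundant elongases of *nm2*, 4 were also among the 5 most abundant of the wildtype.

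The leading elongases were *BGIBMGA000424*, with 93.39 FPKM in *nm2* and 60.98 FPKM in the wildtype, and *BGIBMGA000422*, with 68.97 FPKM in *nm2* and 43.14 FPKM in the wildtype. Neither passed the 2-fold limit. *BGIBMGA012702* had 59.17 FPKM in *nm2* and 22.80 FPKM in the wildtype, 2.60-fold higher with an interval of 1.86 to 3.67. It is named for elongase protein 6, which in mammals lengthens palmitate. The protein 2-like *BGIBMGA005156* had 18.82 FPKM in *nm2* and 8.63 FPKM in the wildtype. The protein 7-like *BGIBMGA010919* had 12.83 FPKM in *nm2* and 5.79 FPKM in the wildtype. These last 2 genes were no longer counted as higher when each library was rescaled to a sum of 1000000, which left 1 higher elongase.

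A single elongase was strongly lower. *BGIBMGA010945* had 1.14 FPKM in *nm2* and 23.72 FPKM in the wildtype, 20.8-fold lower with an interval of 7.78 to 78.0 from 4 reads in *nm2* and 77 in the wildtype. It reached 5 FPKM only through the wildtype, so its call partly follows from the limit. The 4 elongase models under 5 FPKM summed to 4.02 FPKM in *nm2* and 7.54 FPKM in the wildtype. Among these the protein 4-like models *BGIBMGA000842* and *BGIBMGA010922*, named for the mammalian elongase of very long chains, had less in *nm2*, with 0.40 FPKM in *nm2* and 2.17 FPKM in the wildtype for *BGIBMGA000842* and 0.68 FPKM in *nm2* and 3.32 FPKM in the wildtype for *BGIBMGA010922*.

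The reductases split between an abundant gene that was neither higher nor lower, genes that were low in the wildtype and high in *nm2*, and a smaller group that was lower in *nm2*. Fatty acyl-CoA reductases make the fatty alcohols that enter waxes, pheromones and ether lipids. Most of the 23 models are named after the *Drosophila* gene CG5065. Of the 15 models at 5 FPKM or more, 8 were higher and 4 lower, beside 8.83% and 15.0% of all genes. Their median difference was 1.48. Among the higher models only *BGIBMGA011395* reached 5 FPKM in both libraries, so the calls of the others partly follow from the limit. The same holds for the lower *BGIBMGA006569*, which reached it only through the wildtype. At the limit of 4-fold 6 were higher and 1 lower. With the FPKM of models of the same best protein averaged, 4 of 11 were higher and 4 lower, and the median difference was 0.19. Several of the higher models matched the same protein, and the higher *BGIBMGA011129* was averaged with the more abundant *BGIBMGA011128*.

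*BGIBMGA011128* was the most abundant of all 68 models and was neither higher nor lower, with 255.05 FPKM in *nm2* and 344.14 FPKM in the wildtype. It held 47.2% of the reductase FPKM in *nm2* and 55.2% in the wildtype. Its companion *BGIBMGA011129*, which matched the same protein, had 16.69 FPKM in *nm2* and 4.75 FPKM in the wildtype, 3.51-fold higher with an interval of 2.10 to 6.18. Models of the same best protein therefore did not always move together.

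The 4 models named fatty acyl-CoA reductase 1-like all matched 1 protein and all had more FPKM in *nm2*, with a sum of 45.6 FPKM in *nm2* and 1.58 FPKM in the wildtype. *BGIBMGA011140* had 21.69 FPKM in *nm2*, from 111 reads, and was listed at 0 in the wildtype, at least 34.3-fold above a floor of 3 reads, with a counting interval that reaches down to 27.5-fold. *BGIBMGA011138* had 15.73 FPKM in *nm2* and 0.21 FPKM in the wildtype, from 83 reads in *nm2* and 1 in the wildtype, a ratio of 74.9 with an interval of 13.4 to 3079.6. *BGIBMGA014047* had 5.63 FPKM in *nm2* and 1.37 FPKM in the wildtype, 4.11-fold higher with an interval of 1.78 to 11.1. The fourth, *BGIBMGA011139*, stayed under the limit with 2.53 FPKM in *nm2* and was listed at 0 in the wildtype.

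Among the other reductases, *BGIBMGA011395* had 67.35 FPKM in *nm2* and 15.67 FPKM in the wildtype, 4.30-fold higher with an interval of 3.39 to 5.51. *BGIBMGA011148* had 11.92 FPKM in *nm2* and 0.86 FPKM in the wildtype, 13.9-fold higher with an interval of 5.16 to 52.8. *BGIBMGA011147*, which matched the same protein, had 6.12 FPKM in *nm2* and was listed at 0 in the wildtype. *BGIBMGA010511* was also near 0 in the wildtype head, with 6.28 FPKM in *nm2* and 0.80 FPKM in the wildtype.

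The 4 lower reductases included the second most abundant of the wildtype. *BGIBMGA011398*, named after the *Drosophila* gene CG8306, had 56.22 FPKM in *nm2* and 159.70 FPKM in the wildtype, 2.84-fold lower with an interval of 2.49 to 3.25. *BGIBMGA006569* had 2.12 FPKM in *nm2* and 12.05 FPKM in the wildtype, 5.68-fold lower with an interval of 3.19 to 10.9. Levels of the last pair were alike, with 6.63 FPKM in *nm2* and 19.53 FPKM in the wildtype for *BGIBMGA000659*, and 6.85 FPKM in *nm2* and 18.91 FPKM in the wildtype for *BGIBMGA011217*. The 8 reductase models under 5 FPKM summed to 11.6 FPKM in *nm2* and 7.56 FPKM in the wildtype, and 5 of them had more in *nm2*.

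A further 4 gene models are reductases whose names are spelled in another way and fall outside the name rule. The largest, *BGIBMGA011164*, had 11.71 FPKM in *nm2* and 6.00 FPKM in the wildtype and would be neither higher nor lower. The others stayed under 5 FPKM.

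**Figure D3:**
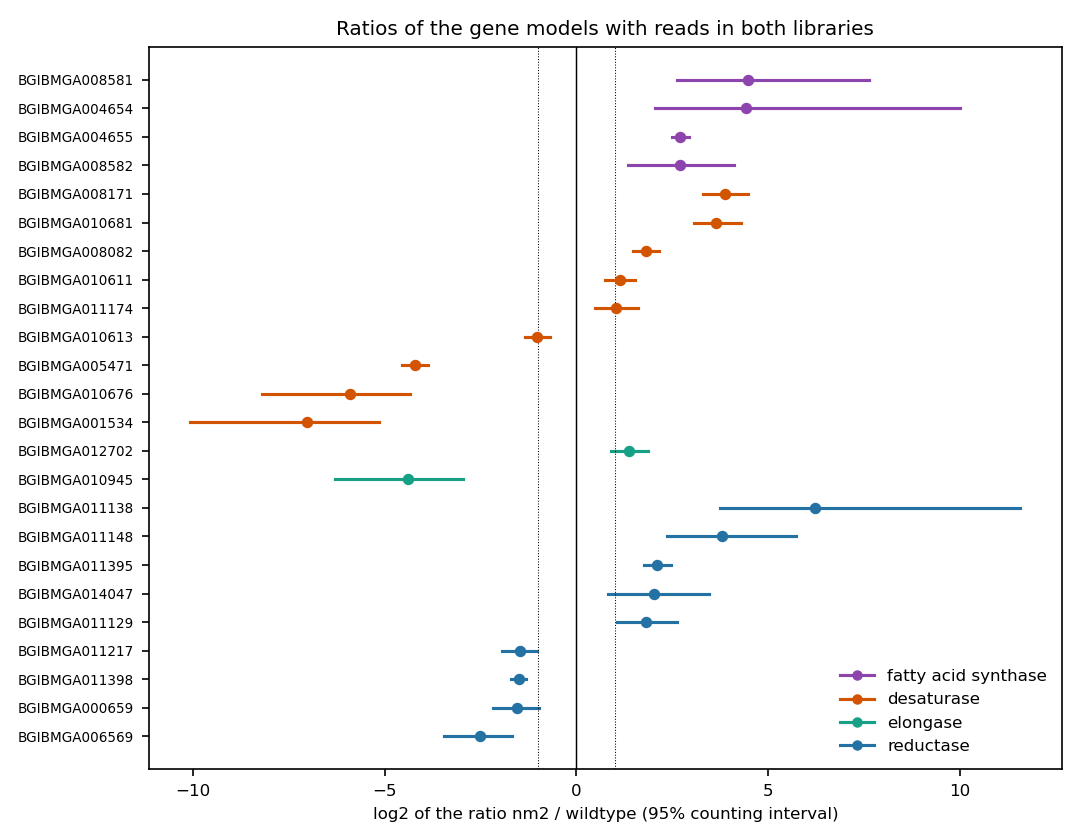
Log2 of the ratio of *nm2* to wildtype FPKM for the 24 gene models with a listed length and reads in both libraries, by class, with 95% counting intervals as lines. Dotted lines mark 2-fold, and the widest intervals belong to genes with 1 to 3 reads in a library, such as *BGIBMGA011138* and *BGIBMGA001534*.

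Lengths, and with them reads and intervals, were listed only for genes that had passed the thresholds of the deposited list of differentially expressed genes, 28 of the 68. Genes with an interval had therefore already been selected to differ between these same libraries. That their intervals leave out a ratio of 1 was set in advance and adds no support. Intervals cover counting error only and leave out the variation between pools of larvae, so they describe these libraries and not the strains. The recovered library totals are 52.4% of the reads mapped to genes in *nm2* and 52.6% in the wildtype, for a reason not given in the sources used here, so the read numbers given here set the width of the intervals but are not the numbers of reads sequenced. At the median listed length of the members, 1 read was worth 0.195 FPKM in *nm2* and 0.211 FPKM in the wildtype.

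Members that lie near each other in the genome did not always share a direction. Of the 68 models, 29 matched a protein of a RefSeq gene on the assembly ASM3026992v2, and members lying within 5 genes of each other formed 5 runs. In the run of desaturases, *BmorPDSN* lay 3 places from *BGIBMGA010676* in the order of protein-coding genes, and both had less FPKM in *nm2*. In a run of reductases, *BGIBMGA011395* was higher and *BGIBMGA011398*, also 3 places away, was lower. The run with 6 reductase models matched 4 RefSeq genes. It held *BGIBMGA011147* and *BGIBMGA011148*, both higher but both matched to 1 RefSeq gene, *BGIBMGA011145*, with 24.57 FPKM in *nm2* and 15.78 FPKM in the wildtype, and 3 models under 5 FPKM. The leading elongases *BGIBMGA000422* and *BGIBMGA000424* lay in a run with *BGIBMGA000291*, which had 40.13 FPKM in *nm2* and 45.51 FPKM in the wildtype, and none of the 3 was called.

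The supply of building blocks moved in the same direction as the synthases for some genes. Of 8 genes for the supply of malonyl-CoA, citrate and NADPH, 3 (37.5%) were higher and none lower, beside 8.83% and 15.0% of all genes. Their median difference was 0.32, against -0.30 for all genes, and the 8 models matched 7 proteins. The ATP-citrate synthase models were neither. *BGIBMGA014290* had 36.23 FPKM in *nm2* and 23.9 FPKM in the wildtype, and *BGIBMGA014294* had 45.78 FPKM in *nm2* and 48.01 FPKM in the wildtype. Acetyl-CoA carboxylase makes the malonyl-CoA that fatty acid synthase uses, and its models had 40.46 FPKM in *nm2* and 14.23 FPKM in the wildtype for *BGIBMGA011223*, and 15.64 FPKM in *nm2* and 5.78 FPKM in the wildtype for *BGIBMGA011222*. The mitochondrial tricarboxylate carrier *BGIBMGA013168*, which exports citrate, had 50.79 FPKM in *nm2* and 19.87 FPKM in the wildtype. The NADPH-forming *BGIBMGA012298* (6-phosphogluconate dehydrogenase) was neither, with 98.63 FPKM in *nm2* and 129.72 FPKM in the wildtype.

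Electron carriers of desaturation were partly higher. Of 13 genes for cytochrome b5, its relatives and their reductases, 3 (23.1%) were higher and none lower, beside 8.83% and 15.0% of all genes. The median difference was 0.46, and the 13 models matched 12 proteins. Cytochrome b5 *BGIBMGA014207* had 99.60 FPKM in *nm2* and 38.54 FPKM in the wildtype. The cytochrome b5-related *BGIBMGA012486* had 69.78 FPKM in *nm2* and 20.85 FPKM in the wildtype. The other enzymes of the elongation cycle, which reduce and dehydrate the product of the elongase, showed no such calls, with 0 of 3 higher and 0 lower. So few genes say little beside 8.83% and 15.0% of all genes. The enoyl-CoA reductase *BGIBMGA003493* had 91.44 FPKM in *nm2* and 134.00 FPKM in the wildtype.

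**Figure D4:**
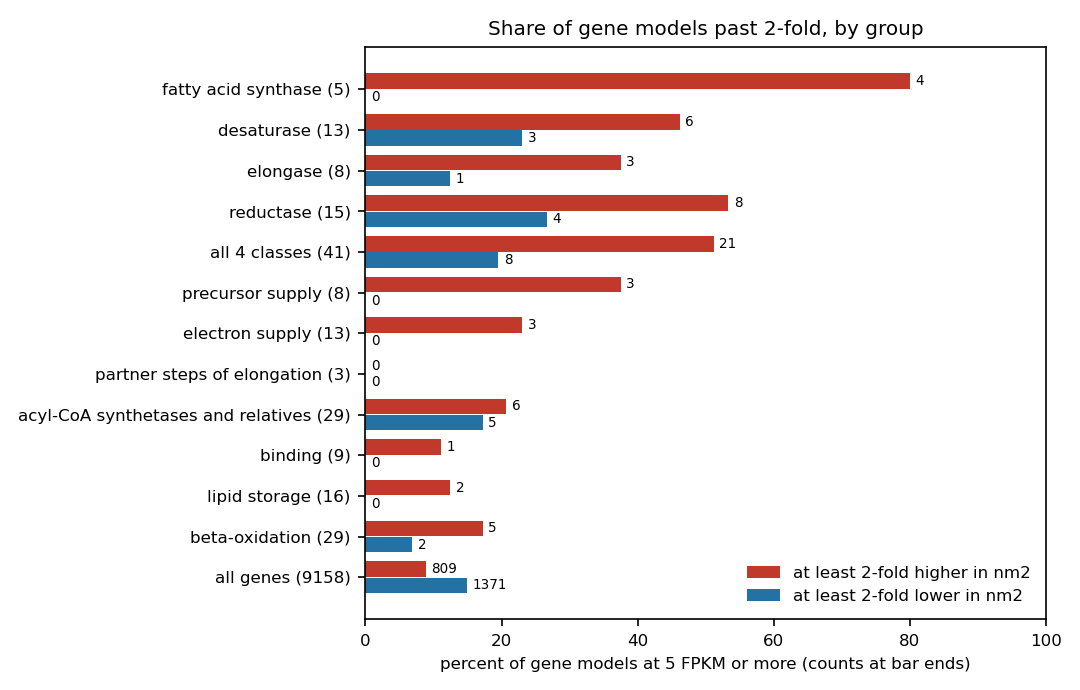
Percent of gene models at 5 FPKM or more that were at least 2-fold higher (red) or lower (blue) in *nm2* on the log2(FPKM + 1) scale, for the 4 enzyme classes, for genes of connected steps and for all genes. Numbers of models tested stand in parentheses and numbers called at the bar ends. All 4 classes have a larger share of higher models than the 8.83% of all genes, and the desaturases at 23.1% and the reductases at 26.7% also have a larger share of lower models than the 15.0% of all genes.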

How the data were processed

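Head RNA of both strains, taken before the second molt, was sequenced as single-end reads. The authors aligned clean reads to SilkDB sequences and used RSEM to obtain the FPKM that they deposited for 12376 gene models. Counts of clean reads and mapping percentages per library are as deposited. Version numbers were not given in the sources used here. Columns of fold changes, P and FDR in the deposited list of differentially expressed genes hold the authors' own comparison and were not used, only its gene lengths and FPKM. FPKM deposited by the authors summed to 1183496 in *nm2* and 1152276 in the wildtype.

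Differences were computed with a pseudocount of 1 FPKM, which understates changes of low genes. Reads were recovered with library totals of 4061000 (*nm2*) and 3770000 (wildtype) and 36 bases taken off each length, and 95.8% of 310 values in *nm2* and 89.7% of 204 in the wildtype fell within 0.1 of a whole number. Ratio intervals are exact conditional binomial. Values of 0 entered the differences, calls and intervals as listed. A floor of 3 reads was used only for the folds given as at least a value, and in an alternative described below. The steps were tested on simulated data.

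In each class the genes named were up to 6 higher and 6 lower genes with the largest difference and the 3 most abundant, and from connected steps up to 2 with the largest difference and the most abundant. Other genes were named after their values were seen. Members and gene lists were chosen with earlier results of these data known. Names of unrelated proteins (cytochrome b560, cardiolipin, mucolipin) were removed from the lists of connected steps after they were seen. Alternatives were other scalings, pseudocounts, limits and merged models. The work used SciPy 1.17.1, NumPy 2.4.6 and pandas 2.3.3 under Python 3.11.15, with figures from matplotlib 3.10.9.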

Additional observations from a re-analysis of the deposited data

How the results depend on the processing

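Of 162 values by class and 180 of single genes, 140 and 166 stayed close to the reported ones. None of the 54 class medians among them changed sign, while the other class values are counts, which cannot. With a limit of 1 FPKM, 33 of 60 members and 11 of 12 synthases were higher, and 3 of 12 elongases were lower. With no limit these counts were the same, out of 68 members, 16 synthases and 12 elongases. The synthase median was 1.86 at 1 FPKM and 1.25 without a limit, and the reductase median was 0.62 at both. With a limit of 20 FPKM, 8 of 22 members were higher and 5 lower, and 1 of 1 synthase and 1 of 6 elongases were higher. Of 6 reductases at this limit, 2 were higher, 1 was lower and the median was 0.40. Shares of all genes are given only for the limit of 5 FPKM, so the counts at other limits have no such share beside them. Rescaling to a sum of 1000000 gave 1 higher elongase and a synthase median of 3.18. Models of the same best protein were merged by averaging their FPKM before the limit was applied. With this, 2 synthases and 4 reductases were higher and 4 reductases lower, with a reductase median of 0.19. Of all members 15 were then higher and 8 lower (median 0.63). Rescaling so that the median gene did not differ, a shift of -0.28 on the log2 scale, gave 12.3% higher and 9.96% lower of all genes, and 23 higher and 8 lower of the members. Raising values of 0 to 3 reads, leaving out the sterol and sphingolipid desaturases and adding the 4 differently spelled reductases were chosen after seeing the data and kept each count within 1.5 times. No paired analysis was possible because each strain has 1 library, and for the same reason no library could be left out. Counting error alone gave a median half-width of 0.61 on the log2 scale for 24 members.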

Other observations

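Acyl-CoA synthetases activate fatty acids, and the list searched for them by name also holds relatives with other substrates. Of its 29 genes at 5 FPKM or more, 6 (20.7%) were higher and 5 (17.2%) lower, beside 8.83% and 15.0% of all genes, with a median difference of -0.08. The luciferin 4-monooxygenases and 4-coumarate ligases made up 12 of the 29 and 4 of the higher genes. Of the 11 genes named for long-chain ligases and fatty acid transport proteins, 0 were higher and 2 lower, again beside 8.83% and 15.0% of all genes. The long-chain ligase *BGIBMGA008853* had 9.44 FPKM in *nm2* and 85.70 FPKM in the wildtype. The luciferin 4-monooxygenase *BGIBMGA003693*, a relative of the acyl-CoA synthetases, had 20.43 FPKM in *nm2* and 0.70 FPKM in the wildtype. The most abundant of this list, the ligase *BGIBMGA003709*, had 148.30 FPKM in *nm2* and 73.70 FPKM in the wildtype, just under the limit for a higher gene.

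Carriers and stores of lipid were mostly neither higher nor lower. Of 9 binding proteins for fatty acids and acyl-CoA, 1 (11.1%) was higher, near the 8.83% of all genes. It was *BGIBMGA012943*, with 87.93 FPKM in *nm2* and 39.35 FPKM in the wildtype. The acyl-CoA binding protein *BGIBMGA002905* was far more abundant than any enzyme described here, with 2776 FPKM in *nm2* and 2317 FPKM in the wildtype. Of 16 genes for fat storage and its synthesis, 2 (12.5%) were higher, also near the share of all genes, and none lower. *Perilipin* (*BGIBMGA013593*), a coat protein of lipid droplets, had 155 FPKM in *nm2* and 42.6 FPKM in the wildtype. The phosphatidate phosphatase *BGIBMGA003969*, of a family that makes diacylglycerol, had 10.17 FPKM in *nm2* and 0.73 FPKM in the wildtype.

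In the breakdown of fatty acids by beta-oxidation, 5 of 29 genes (17.2%) were higher and 2 (6.9%) lower, beside 8.83% and 15.0% of all genes. The median difference was -0.37, against -0.30 for all genes. The thiolase *BGIBMGA012661*, which carries out the last step, had 27.50 FPKM in *nm2* and 2.96 FPKM in the wildtype. The peroxisomal acyl-CoA oxidase *BGIBMGA002573* had 3.10 FPKM in *nm2* and 10.72 FPKM in the wildtype. These lists rest on 1 library per strain, as do the enzyme classes.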
